A study of Arabidopsis thaliana with 26 samples.

Results

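Untreated plants of the sf2 line were compared with untreated wild type (wt) of Arabidopsis thaliana. The comparison was defined by the sample labels, as both arrays labelled sf2 control against both arrays labelled wildtype control, which are 4 of the 26 arrays of the series. Each array is an Affymetrix ATH1 chip, on which the RNA of 1 sample is read by 22810 probe sets, short groups of probes that each measure 1 transcript or a few close ones. The wt plants were ecotype Columbia-0, and sf2 is a line from chemical mutagenesis with ethyl methanesulfonate in the same ecotype, which the series title ties to the mutation sfr2. All plants grew on agar medium at 21 °C and 100% humidity in continuous light, and each sample was the aerial tissue of 18 pooled plants. The labels used here give no sf2 allele and no rescued line, and they do not say whether the samples of a group were grown apart. Cold-treated plants of both lines (24 h at 4 °C in continuous light) and untreated plants of the mutant lines sf6 and sf3, also from chemical mutagenesis and tied by the title to sfr6 and sfr3, served as further groups of 2 arrays each.

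SENSITIVE TO FREEZING 2 (SFR2) encodes an enzyme of the outer chloroplast envelope that remodels galactolipids. It moves galactose from one monogalactosyldiacylglycerol molecule to another, which makes oligogalactolipids and diacylglycerol, and plants without it fail to recover from freezing. The enzyme is known to be present in unstressed leaves and to become active when cells freeze or lose water. The untreated arrays compare the lines before any such stress. SFR2 itself has no probe set named in the annotation used here, so its transcript was not analysed and gives no check of the sf2 label.

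Few probe sets passed the threshold between untreated sf2 and untreated wt, with 2 arrays per line. Of 17059 probe sets tested, 19 passed an adjusted p of 0.05 (0.111%), of which 17 were higher in sf2 (0.0997%) and 2 were lower (0.0117%). At an unadjusted p under 0.05 there were 1576 (9.24%), split into 781 higher (4.58%) and 795 lower (4.66%). Higher in sf2 were the cytosolic Hsp70 gene AT3G09440 and the DnaJ-domain gene AT3G14200, whose product carries the domain of Hsp70 partner proteins. The other named genes that rose encode a helix-loop-helix factor of jasmonate responses (MYC4), hydrolases, a methyltransferase-like protein and little-known proteins, and the named gene that fell encodes a peroxidase. None of the tested genes in the lists of chloroplast membrane lipid, photosynthesis or cold-response genes passed. Only 3 of the 32 lipid genes were tested, and these act in fatty acid release and export, so galactolipid synthesis itself was not covered.

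Differences are given as sf2 minus wt on the log2(intensity + 16) scale with their standard error (SE), so that 1 means a doubling of intensity + 16, and the constant makes differences of dim probe sets smaller. P-values come from limma's moderated test, adjusted by the Benjamini-Hochberg method over all 17059 probe sets. The array values themselves are given as deposited intensities on the linear scale, on which every array has been scaled to a trimmed mean of 100.01. In bulk tissue, fewer cells of a type and less RNA per cell cannot be told apart. Of the 19 called probe sets, 10 are listed with 1 gene and 9 with none, and the latter are given by their identifiers. The 17 rises ran from 0.61 to 1.39 with a median of 0.95, and 6 of them were at least 2-fold. In all 19, both sf2 arrays lay on the same side of both wt arrays, which was also true of 41.4% of all probe sets tested (19.8% with sf2 higher and 21.6% with sf2 lower).

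**Figure D1:**
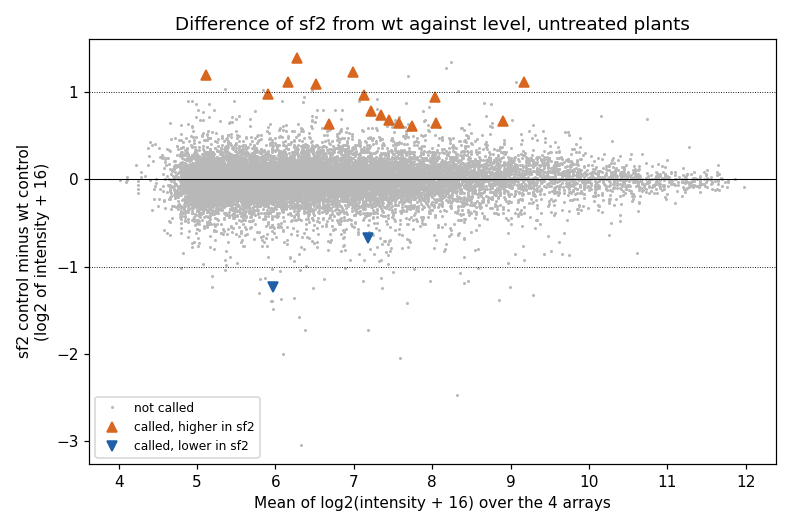
Each point is a probe set, with its mean of log2(intensity + 16) over the 4 arrays on the x axis and the fitted difference, sf2 control minus wt control, on the y axis, with dotted lines at 2-fold. The 17 called rises (upward triangles) and the 2 called falls (downward triangles) lie at low to middle levels. None of them read above 935.7 on any of the 4 arrays. Many larger differences below the lower dotted line were not called.

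The heat shock protein 70 (Hsp70) family binds unfolded protein chains, and DnaJ proteins are the partners that pass such chains to Hsp70. AT3G09440, which encodes a cytosolic heat shock cognate protein of this family, had the smallest adjusted p of the comparison. Its intensity was 371.8 and 380.2 on the wt control arrays and 747.3 and 935.7 on the sf2 control arrays. The wt arrays lay close together and both sf2 arrays stood well above them, a difference of 1.12 (SE 0.13, adjusted p = 0.00158), or 2.17-fold on the intensity + 16 scale. On the other untreated mutant arrays, which are not part of this difference, the gene read 699.1 and 848.5 in sf6 and 724.6 and 687.8 in sf3. The sf2 arrays thus overlapped those of sf6 and sf3, and the wt arrays were the lowest of the 8 untreated arrays.

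AT3G14200 encodes a protein with the DnaJ domain. It was dim in wt, at 6.9 and 6.6, and read 26.1 and 49.0 in sf2, a difference of 1.2 (SE 0.22, adjusted p = 0.0464). The groups did not overlap, but the wt values lie below the constant of 16. The call was kept in 7 of 15 alternative settings, and was lost among others with a constant of 64, without a filter, without the intensity trend and without either wt array. Its levels in sf6 (22.3 and 26.2) and sf3 (26.3 and 26.3) reached the lower of the sf2 arrays and again lay above wt. For both of these genes the wt arrays were the lowest of the 8 untreated arrays, and sf2 was not the only line above them.

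Of the 45 genes in the list of heat shock proteins and chaperones 9 were tested and 1 was called (AT3G09440), and the list's median difference was 0.19 against −0.01 for all probe sets tested. Hsp70-2, another cytosolic Hsp70, read 101.8 and 102.8 in wt and 119.4 and 158.5 in sf2 (0.38, SE 0.13, adjusted p = 0.34). Hop2, a co-chaperone that links Hsp70 to Hsp90, differed by 0.29 (SE 0.16, adjusted p = 0.618), and the Hsp90 activator homologue AT3G12050 by 0.19 (SE 0.10, adjusted p = 0.594). The 5 tested genes of protein folding in the endoplasmic reticulum, among them the sensor factors BZIP60 (−0.03, SE 0.13) and BZIP28 (0.04, SE 0.21), had a median of 0.04 and no call. AT3G14200 was in none of the lists.

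MYC4 is a transcription factor that acts with its close relatives MYC2 and MYC3 in jasmonate signalling and glucosinolate production. It read 65.6 and 66.1 in wt and 101.4 and 122.7 in sf2 (0.64, SE 0.12, adjusted p = 0.0464). The wt arrays were almost equal and both sf2 arrays were higher, while sf6 (85.9 and 97.7) and sf3 (81.4 and 69.7) lay between the lines. The MYC4 call was kept in 6 of 15 alternative settings and was lost on leaving out any 1 of the 4 arrays. The jasmonate list had 4 tested members, none called: the methyltransferase gene JMT (0.17), the factor gene ORA47 (−0.09), the thionin gene THI2.1 (−0.13) and the jasmonate synthesis gene OPCL1 (0.04). Of 4 tested glucosinolate genes none was called, and their median was 0.21. BCAT4, which starts the side-chain elongation of methionine, read 861.9 and 705.4 in wt and 956.2 and 1042.5 in sf2 (0.35, SE 0.14, adjusted p = 0.406), and the transporter gene GTR1 differed by 0.29 (SE 0.12, adjusted p = 0.438).

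Another 4 named genes that rose encode enzymes or enzyme-like proteins. AT5G02230, of the haloacid dehalogenase-like hydrolases, read 103.1 and 91.7 in wt and 177.3 and 183.4 in sf2 (0.79, SE 0.12, adjusted p = 0.0251). The serine carboxypeptidase-like gene scpl46 read 114.8 and 104.3 in wt and 189.9 and 198.1 in sf2 (0.74, SE 0.12, adjusted p = 0.0346). In both genes the replicate arrays of each line were close and the lines far apart. For scpl46 the sf6 arrays (181.8 and 180.5) came near those of sf2, while those of sf3 (118.2 and 132.9) came near wt. AT5G42760, of the leucine carboxyl methyltransferase family, read 131.7 and 113.2 in wt and 197.3 and 212.5 in sf2 (0.68, SE 0.12, adjusted p = 0.0464). AT1G60590, a pectin lyase-like gene whose family acts on cell wall pectin, read 103.5 and 67.3 in wt and 172.2 and 187.4 in sf2 (0.97, SE 0.18, adjusted p = 0.0469). Here the wt arrays differed by more than the sf2 arrays did, yet the lines did not overlap.

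For another 2 genes that rose no function is given here. AT2G15020 read 79.8 and 55.4 in wt and 154.1 and 205.8 in sf2, the largest rise among named genes (1.23, SE 0.16, adjusted p = 0.00652). Its sf2 arrays stood above all 6 other untreated arrays, since sf6 read 85.3 and 118.2 and sf3 read 95.0 and 75.1. AT5G55620 read 414.4 and 318.8 in wt and 566.1 and 612.4 in sf2 (0.67, SE 0.11, adjusted p = 0.0346), and here too both sf2 arrays were the highest of the 8.

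**Figure D2:**
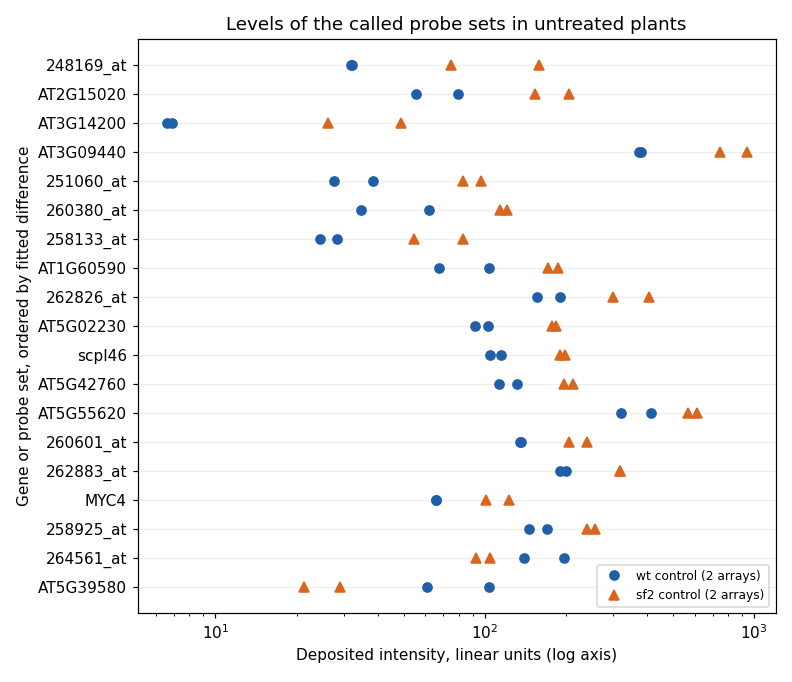
The x axis gives the deposited intensity on a log axis for each called probe set (rows, ordered by the fitted difference), with circles for the 2 wt control arrays and triangles for the 2 sf2 control arrays. The lines do not overlap in any row, and the 2 rows at the bottom are those lower in sf2.

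Among the 9 called probe sets listed without a gene, 8 were higher in sf2. The largest rise of all was 248169_at, at 32.2 and 31.9 in wt and 75.1 and 158.8 in sf2 (1.39, SE 0.22, adjusted p = 0.0315). Its sf2 arrays differed from each other by more than 2-fold, and the lower of them was below the upper sf6 array (77.1). 251060_at read 38.3 and 27.5 in wt and 82.9 and 97.0 in sf2 (1.12, SE 0.15, adjusted p = 0.00882), and 260380_at read 61.9 and 34.7 in wt and 121.2 and 114.2 in sf2 (1.09, SE 0.18, adjusted p = 0.0346). In both, the sf2 arrays were the highest of the untreated arrays. The others were 258133_at (0.98), 262826_at (0.95), 260601_at (0.65), 262883_at (0.65) and 258925_at (0.61), with adjusted p values between 0.0365 and 0.0469.

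The falls were fewer. AT5G39580, a peroxidase of the class that acts in cell walls and defence, read 61.1 and 103.5 in wt and 21.4 and 28.9 in sf2 (−1.23, SE 0.21, adjusted p = 0.0365). The wt arrays were far apart, and the lower of them still stood above both sf2 arrays. Untreated sf6 (22.0 and 21.8) lay at the sf2 level and untreated sf3 (60.9 and 84.8) at the wt level. 264561_at, listed without a gene, read 140.2 and 196.4 in wt and 93.1 and 104.6 in sf2 (−0.67, SE 0.12, adjusted p = 0.0464).

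Size and call went apart in this comparison. By size alone 54 probe sets differed at least 2-fold (0.317%), 14 higher (0.0821%) and 40 lower (0.234%) in sf2, and 47 of them were not called. The genes and probe sets in this paragraph and the next were chosen after their values were seen. In the 40 that were lower, wt replicate 2 exceeded wt replicate 1 in 38 and by at least 1.5-fold in 35, compared with 284 of all 17059. The same 40 were also higher in sf3 control replicate 2 than in sf3 control replicate 1, in 38 cases, and by at least 1.5-fold in 31 (77.5%, against 3.1% of all probe sets tested). The sf3 arrays had no part in choosing them. Wt replicate 2 and sf3 replicate 2 were also the untreated arrays that stood apart from the rest on the third principal component of the 20 agar arrays, which held 3.7% of the variance (17.5 and 26.5, against −12 to 3.5 for the other 6). Both sf2 control arrays lay at −7.2 and −8.2 and wt replicate 1 at 3.5. The part of this split in the 40 falls, or in the 19 calls, was not tested beyond leaving out arrays.

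The 2 exceptions on the wt side were the defensin genes PDF1.2 and PDF1.2b, which respond to jasmonate and ethylene and were higher in wt replicate 1. PDF1.2 read 355.3 and 170.5 in wt and 49.6 and 80.0 in sf2 (−1.73, SE 0.59, adjusted p = 0.314), with sf3 at 56.0 and 323.6. MCCA, a subunit of the carboxylase of leucine breakdown, followed the common pattern and read 152.1 and 329.1 in wt and 96.8 and 91.1 in sf2 (−1.13, SE 0.29, adjusted p = 0.146), with sf3 at 122.5 and 271.4. Untreated sf6, at 53.4 and 50.5 for PDF1.2 and 81.0 and 70.6 for MCCA, also lay below both wt arrays. The wt arrays of both genes were about 2-fold apart, so the spread within wt was close to the difference between the lines or a large part of it. The 3 probe sets with the largest falls, 251428_at (−3.04), 252415_at (−2.47) and 246099_at (−2.05), are listed without a gene and were not called. 252415_at, for one, read 411.1 and 1300.0 in wt and 98.8 and 144.3 in sf2 (SE 0.51, adjusted p = 0.0712). Against the same wt arrays, untreated sf6 differed by −2.88, −2.85 and −2.83 in these 3 probe sets, so the falls were not peculiar to sf2. Among the genes just outside the threshold were AT4G01870, a TolB-related gene (−1.06, SE 0.20, adjusted p = 0.0573), AT2G30600, a BTB-domain gene (−1.16, SE 0.22, adjusted p = 0.0573), and the flavonol rhamnosyltransferase gene AT1G06000 (0.64, SE 0.13, adjusted p = 0.0664). Another probe set of AT2G30600, 267524_at, was further from it (−1.17, SE 0.29, adjusted p = 0.128). Against the same wt arrays, AT4G01870 differed by −1.37 in untreated sf6, where it was called (adjusted p = 0.0216), and by 0.59 in sf3. The first AT2G30600 probe set differed by −1.15 in sf6 and −0.29 in sf3, and its wt arrays read 407.4 and 631.7.

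The cold arrays of the same lines give the sf2 minus wt difference on arrays that the untreated difference does not use. Both sets of p-values come from the same fit with a shared estimate of the spread, so calls in both conditions are not fully independent. After 24 h at 4 °C, 20 of the 17059 probe sets differed between sf2 and wt (0.117%), 15 higher (0.0879%) and 5 lower (0.0293%) in sf2. Only 248169_at was called in both conditions, in the same direction, at 30.2 and 19.4 in cold wt and 93.2 and 116.8 in cold sf2 (1.57, SE 0.22, adjusted p = 0.0175). Its sf2 level was thus about as far above wt in the cold as in untreated plants. Of the 17 probe sets that were higher in untreated sf2, 8 were above 0 in the cold, against 54.7% of all probe sets tested, and their median there was −0.01, with a range of −0.55 to 1.57. Across all 17059 probe sets the untreated and the cold differences had a Pearson r of −0.034 and a Spearman rho of −0.045, given as a description, since probe sets are not independent replicates.

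**Figure D3:**
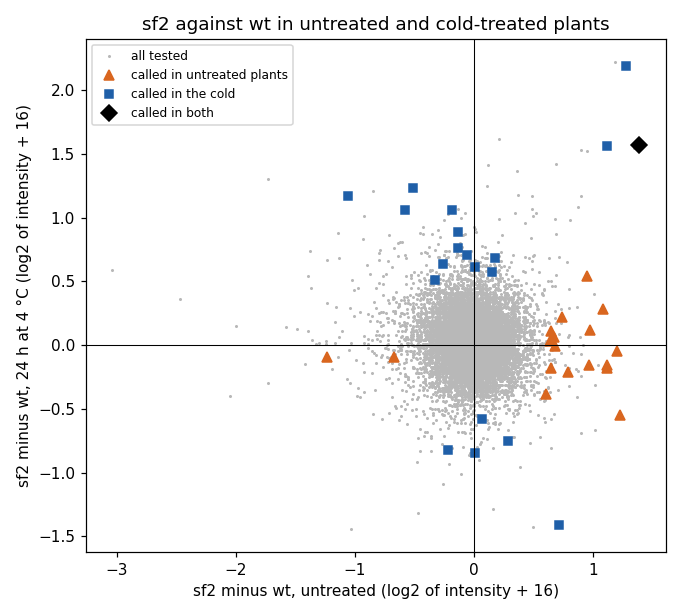
The x axis gives sf2 minus wt in untreated plants and the y axis sf2 minus wt after cold, both as log2 of intensity + 16, for all tested probe sets (small points) and for those called in either condition. The triangles of the untreated calls lie along the x axis near 0 in the cold, and the diamond in the upper right is 248169_at, the probe set called in both.

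Another 2 genes, chosen after their values were seen, were higher in sf2 in both conditions but called only in the cold. AT5G03350, a legume-lectin-like gene known to respond to salicylate, read 308.9 and 389.9 in untreated wt and 609.0 and 982.6 in untreated sf2 (1.12, SE 0.25, adjusted p = 0.0946). In the cold it read 151.9 and 74.5 in wt and 392.3 and 307.1 in sf2 (1.56, SE 0.25, adjusted p = 0.0264), which was called. AT1G19960, a little-known gene, differed by 1.28 in untreated plants (SE 0.36, adjusted p = 0.197) and by 2.19 in the cold (SE 0.36, adjusted p = 0.0339). In both genes sf2 and wt did not overlap under either condition, and the untreated sf6 arrays (635.6 and 643.2 for AT5G03350, 427.6 and 459.8 for AT1G19960) also stood above wt.

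None of the other probe sets called in the cold was called in untreated plants. The largest named rises after AT1G19960 and AT5G03350 were AT4G01870 (1.17, SE 0.20, adjusted p = 0.0342), AT1G52200, of the PLAC8 family of membrane proteins (1.06, SE 0.19, adjusted p = 0.0342), and DME, a DNA glycosylase that removes methylated cytosine (0.89, SE 0.14, adjusted p = 0.0264). Their untreated differences were −1.06, −0.58 and −0.13, none of them called. In all of these genes the cold sf6 and sf3 arrays also lay above cold wt. AT4G01870 read 605.7 and 730.8 in cold wt, 1526.4 and 1503.9 in sf2, 1506.0 and 1136.7 in sf6 and 1263.8 and 1411.4 in sf3. DME read 2.8 and 3.1 in cold wt, 15.8 and 22.9 in sf2, 31.9 and 24.4 in sf6 and 25.9 and 18.9 in sf3, so that wt was the line apart. The cold wt values of DME lie below the constant of 16, so its difference rests on dim signal. The named genes lower in cold sf2 were AT3G19970, of the alpha/beta-hydrolases (−0.85), AT3G48950, a pectin lyase-like gene (−0.82), and AT3G02250, of the O-fucosyltransferase family (−0.58). Untreated sf2 differed from wt in these by 0.01, −0.22 and 0.07. AT3G48950 was dim too, at 18.6 and 22.7 in cold wt and 3.1 and 6.6 in cold sf2, the latter below the constant.

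Whether the sf2 difference itself changed with cold was tested as the cold response of sf2 minus that of wt. This difference uses the same untreated arrays on which the 19 were called. It was called for 22 probe sets (0.129%), and 5 of the 19 were among them, all with a lower (more negative) cold response in sf2. For AT3G09440 the cold arrays read 2287.1 and 2442.3 in wt and 2044.2 and 2114.8 in sf2, so that the lines differed by −0.18 in the cold (SE 0.13, adjusted p = 0.617) and their responses by −1.30 (SE 0.18, adjusted p = 0.0054). Cold raised this chaperone gene in both lines, from a lower start in wt. For AT2G15020 the cold arrays read 122.2 and 110.7 in wt and 72.5 and 76.2 in sf2, and the responses differed by −1.78 (SE 0.23, adjusted p = 0.00371). The transcript thus rose with cold in wt (0.68, SE 0.16) and fell in sf2 (−1.10, SE 0.16). Its cold response was −0.24 in sf6 and 0.05 in sf3 (SE 0.16 each), between those of wt and sf2. AT5G02230 fell with cold in both lines, to 45.4 and 40.5 in wt and 34.0 and 36.1 in sf2, and its responses differed by −1.0 (SE 0.17, adjusted p = 0.0303). The unnamed sets 251060_at (−1.28) and 258925_at (−0.99) were the other pair. AT3G14200 reached 129.1 and 209.3 in cold wt and 124.1 and 201.0 in cold sf2, and its difference of responses was not called (−1.25, SE 0.31, adjusted p = 0.15).

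**Figure D4:**
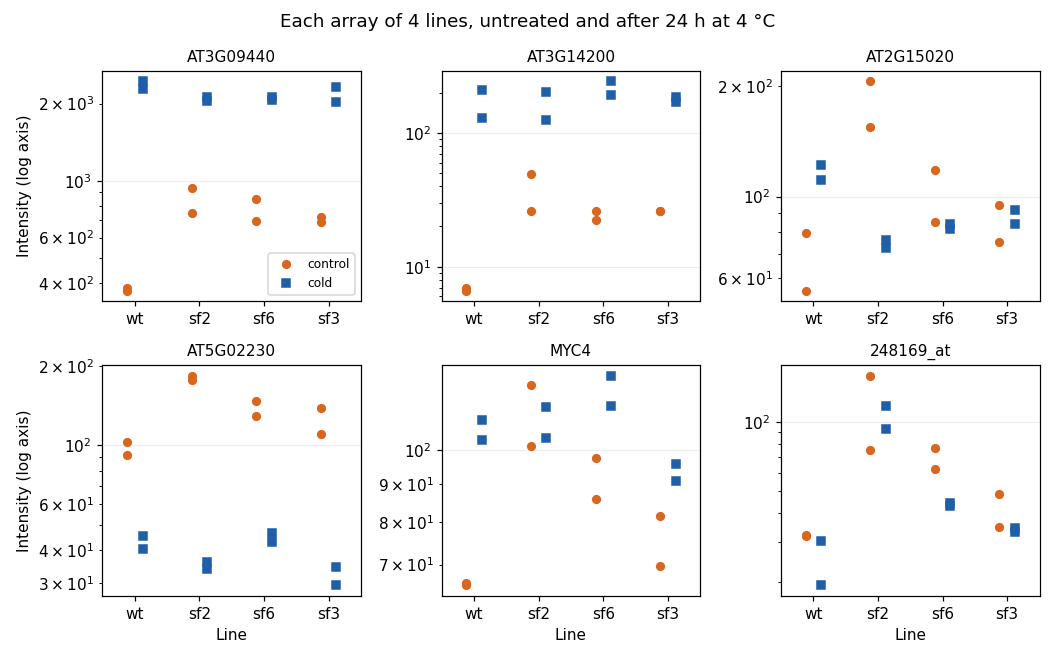
Each panel shows the deposited intensity (log axis) of a called gene or probe set on both arrays of wt, sf2, sf6 and sf3, with circles for untreated plants and squares for 24 h at 4 °C. Untreated wt is the lowest group for AT3G09440 and AT3G14200, untreated sf2 is the highest for AT2G15020 and AT5G02230, and 248169_at is higher in sf2 than in wt under both conditions.

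Untreated sf2 was also set against the mean of untreated sf6 and sf3, which asks whether a difference from wt was peculiar to sf2 among these mutant lines. This comparison uses the same sf2 arrays. A single probe set was called (0.00586%), 261639_at, at 664.7 and 647.6 in sf2, 125.9 and 166.0 in sf6 and 91.9 and 98.0 in sf3 (2.33, SE 0.15, adjusted p = 3.91e-07). Wt read 634.9 and 569.9, so that sf2 lay near wt and was not called against it (0.12, SE 0.17, adjusted p = 0.91). At an unadjusted p under 0.05 there were 829 (4.86%). None of the 19 was called against the other mutants. In 14 of the 17 rises both sf2 arrays lay above all 6 other untreated arrays, a description only, since the 17 were chosen for sf2 above wt on these arrays. Over all probe sets tested this held for 639 (3.75%). All 17 were also above wt in untreated sf6 (median difference 0.49) and in untreated sf3 (median 0.29). Of all probe sets tested, 49.0% were above 0 in sf6 and 45.1% in sf3. These differences use the same wt arrays on which the 17 were chosen, so they too are a description only. Of the 19, AT2G15020 came nearest to a call against the other mutants (0.84, SE 0.14, adjusted p = 0.0665), followed by AT5G55620 (0.53, SE 0.10, adjusted p = 0.132). For AT3G09440 the difference from the other mutants was 0.18 (SE 0.11, adjusted p = 0.999).

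The sf6 and sf3 lines have comparisons of their own with the same wt arrays, so their values are only set side by side. AT3G09440 differed from wt by 1.12 in sf2, 1.00 in sf6 (SE 0.13, adjusted p = 0.00352) and 0.88 in sf3 (SE 0.13, adjusted p = 0.00482). AT5G39580 differed by −1.23 in sf2, −1.34 in sf6 (SE 0.21, adjusted p = 0.0316) and −0.12 in sf3 (SE 0.21, adjusted p = 0.966). AT2G15020 differed by 1.23 in sf2, 0.50 in sf6 (SE 0.16, adjusted p = 0.26) and 0.28 in sf3 (SE 0.16, adjusted p = 0.814). Against wt, 5 probe sets were called in sf6 (0.0293%) and 21 in sf3 (0.123%).

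The gene lists were described by their calls and medians, beside 0.111% called and a median of −0.01 over all probe sets tested. In the 21 lists of loci, 127 genes were tested and 2 were called, AT3G09440 and AT2G15020, the latter as a member of the list of clock and light signalling genes. The other 2 tested members of that list were HYH, a light-signalling factor (0.28, SE 0.13, adjusted p = 0.502), and GI, a clock protein (−0.35, SE 0.23, adjusted p = 0.716). Most lists cover few of their genes, because many loci have no named probe set.

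Lipid genes near the role of SFR2 were poorly covered. Of 32 galactolipid and chloroplast membrane lipid genes 3 were tested, and none was called. FaTA and FATB release fatty acids from their carrier protein in the plastid, and AT3G57280 exports them through the plastid envelope. FaTA read 28.2 and 27.9 in wt and 29.5 and 31.1 in sf2 (0.07, SE 0.15), FATB 358.0 and 371.9 against 361.6 and 360.6 (−0.01, SE 0.09), and AT3G57280 305.2 and 315.3 against 303.1 and 300.3 (−0.04, SE 0.10). The difference of the lines in these genes lay within about 1 SE of 0. SDP1, a lipase that breaks down storage oil, read 119.2 and 146.4 in wt and 92.0 and 84.5 in sf2 (−0.51, SE 0.17, adjusted p = 0.31).

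Of nuclear photosynthesis genes, the 12 tested had a median of 0.01 and a range of −0.07 to 0.37, with no call. LHCB4.3, a minor antenna protein, read 393.4 and 411.7 in wt and 710.6 and 385.2 in sf2 (0.37, SE 0.25, adjusted p = 0.728), so that a single sf2 array stood out. The 8 tetrapyrrole genes had a median of −0.07, with GSA1, an enzyme of early chlorophyll synthesis, at −0.27 (SE 0.12, adjusted p = 0.525).

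Transcripts of the plastid genome were mostly below wt in sf2, without a call. This list was added after values of its ribosomal protein genes had been seen. Of 69 plastid-encoded genes tested, 66 were below 0 and the median was −0.14, against 52.2% below 0 and a median of −0.01 over all probe sets. None passed, and 6 were lower at an unadjusted p under 0.05. Against the mean of untreated sf6 and sf3 the median was −0.01. The median intensity of the 69 was 1212 and 1070 in wt, 1061 and 1049 in sf2, 999.1 and 1140 in sf6 and 1056 and 1267 in sf3, so that wt replicate 2 was close to both sf2 arrays. atpH, a subunit of the plastid ATP synthase, read 997.3 and 997.1 in wt and 538.7 and 773.4 in sf2 (−0.61, SE 0.24, adjusted p = 0.417). rbcL, the large subunit of Rubisco, read 758.6 and 881.2 against 627.5 and 627.1 (−0.37, SE 0.19, adjusted p = 0.592). In the cold, on other arrays, 64 of the 69 were below 0 with a median of −0.35, and again none was called. Over all probe sets 45.3% were below 0 there and the median was 0.02. Of the 69, 28 were lower in the cold at an unadjusted p under 0.05 and 0 were higher. The 69 share their arrays and are not independent of each other. Without wt control replicate 1, whose label title carries a repeat mark, 52 of the 69 were below 0 in untreated plants with a median of −0.09, and without wt control replicate 2 there were 67 with a median of −0.22. The cold median was −0.22 without wt cold replicate 2 and −0.21 with quantile normalization.

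Cold-regulated genes did not pass in untreated sf2. The 8 tested had a median of 0.01. COR27, a cold-induced gene that also acts in the clock, read 43.1 and 99.0 in wt and 21.2 and 21.8 in sf2 (−1.14, SE 0.25, adjusted p = 0.0965). The dehydrin gene COR47 read 351.9 and 450.8 against 264.7 and 342.1 (−0.39, SE 0.16, adjusted p = 0.438). COR15A, a chloroplast protein that protects membranes in freezing, read 55.0 and 48.3 against 53.2 and 57.3 (0.08, SE 0.16, adjusted p = 0.952), so its groups overlapped. Of the abscisic acid and dehydration genes 5 were tested, with a median of −0.38 and no call. ALDH7B4, an aldehyde dehydrogenase of osmotic stress, read 292.3 and 675.2 in wt and 211.6 and 257.8 in sf2 (−0.89, SE 0.33, adjusted p = 0.37), and the wt arrays were further apart than the lower wt array was from sf2.

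Among 16 carbon starvation and autophagy genes none was called and the median was −0.13. After MCCA, the smallest adjusted p values were those of AKINBETA1, a subunit of the energy-sensing kinase SnRK1 (−0.54, SE 0.18, adjusted p = 0.268), IVD, an enzyme of leucine breakdown (−0.81, SE 0.27, adjusted p = 0.296), and AT3G15450 (−0.64, SE 0.28, adjusted p = 0.493). IVD read 91.8 and 213.6 in wt, 69.3 and 79.0 in sf2 and 108.7 and 223.0 in sf3, the pattern of wt and sf3 replicates 2 described above.

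The flavonoid and anthocyanin list had the highest median of the lists with more than 5 tested genes, 0.25 over 9 genes, with no call. Against the other mutants its median was −0.08. After AT1G06000 (154.6 and 145.2 in wt, 253.3 and 230.5 in sf2), the flavonol rhamnosyltransferase gene UGT78D1 read 149.8 and 123.7 against 204.5 and 185.0 (0.47, SE 0.12, adjusted p = 0.148). UGT78D2, a flavonoid glucosyltransferase gene, differed by 0.32 (SE 0.11, adjusted p = 0.295). The sf2 arrays of all these genes lay above those of wt. AT1G06000 also stood above wt in sf6 (0.74, SE 0.13, adjusted p = 0.0643) and in sf3, where it was called (0.73, SE 0.13, adjusted p = 0.034), on the same wt arrays. In the cold the list's median was −0.15.

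Among wall-loosening and growth genes, 9 tested with a median of −0.02, the expansin gene EXPA8 read 249.9 and 177.0 in wt and 392.8 and 494.1 in sf2 (1.01, SE 0.22, adjusted p = 0.0847). EXLB1, an expansin-like gene, differed by 0.64 (SE 0.17, adjusted p = 0.16). Neither was called, and EXPA8 in sf2 stood above all other untreated arrays. The remaining lists had no call. Their medians were −0.23 for 5 oxidative and detoxification genes, −0.18 for 4 salicylate and defence genes, 0.05 for 5 rapid touch and stress genes, 0.04 for 5 sugar and starch genes, −0.06 for 2 nutrient-shortage genes and −0.05 for 10 ribosome biogenesis genes. DME, the only tested gene of the DNA methylation list, was at −0.13. In the 15 families with a tested member, found by symbol or plastid location and covering 211 genes, no gene was called. The smallest adjusted p was that of EXPA8, described above, followed by the calmodulin-like gene CML43, at 16.5 and 7.6 in wt and 27.7 and 31.7 in sf2 (0.72, SE 0.17, adjusted p = 0.11).

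**Figure D5:**
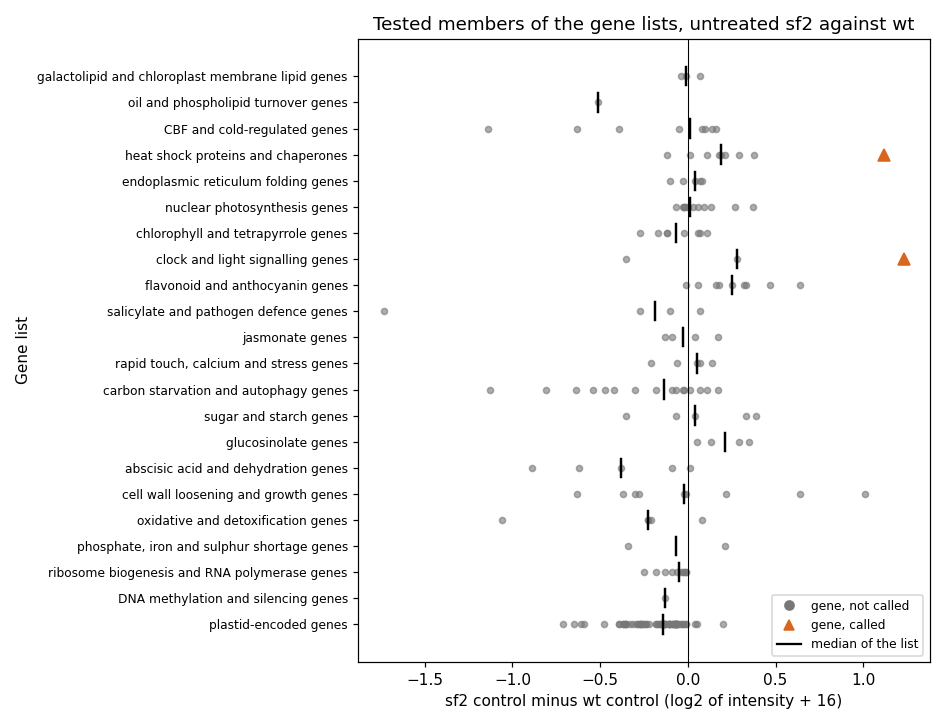
Each row is a gene list and each point a tested member, placed by sf2 control minus wt control in log2 of intensity + 16, with a vertical bar at the list's median and triangles for called genes. The 2 triangles are AT3G09440 and AT2G15020, and the medians of most lists lie near 0.

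Tissue markers were read next. The 4 leaf markers with a named probe set (PRK, RCA, LHCB4.1 and LHCB4.2) summed to 11227.8 to 12419.1 in wt and 11178.1 to 11989.7 in sf2, and none differed by more than 0.07. The 3 root markers summed to 1626.7 to 1684.9 in wt and 1316.2 to 1468.9 in sf2. Nearly all of that was PYK10, a glucosidase of root and hypocotyl, at 1659.1 and 1579.7 in wt and 1285.9 and 1440.2 in sf2 (−0.25, SE 0.12, adjusted p = 0.559), while the root hair gene EXPA7 was at −0.02. The single flower marker and the single meristem marker with a probe set read at most 5.2, and no seed marker had one. The part of tissue mixture in the 19 calls was not tested.

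The scanner's average background was 64.08 and 86.98 for wt replicates 1 and 2 and 83.05 and 76.45 for the sf2 replicates. The outlier cells were 1010 and 282 against 794 and 390. The wt replicates correlated at 0.986 over the tested probe sets on the log2 scale and the sf2 replicates at 0.988. Wt replicate 1 correlated with sf2 replicate 1 at 0.988, no less than replicates of a line did with each other. Over 15 alternative settings the 19 probe sets kept their call in 6 to 13, with a median of 8. The called set depended on single arrays: without sf2 control replicate 2 no probe set was called (1088 at an unadjusted p under 0.05), without wt control replicate 2 only AT3G09440 was, without sf2 control replicate 1 there were 15, 7 of them among the 19, and without wt control replicate 1 there were 91, 14 of them among the 19.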

How the data were processed

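The authors deposited 1 linear intensity per probe set and array, and the values show that each array was scaled to a trimmed mean of 100.01 after leaving out 2% at each end. The software that summarised the probes into these deposited intensities is not given in the sources used here. The 64 control probe sets were left out of the 22810, and the dimmest 25% of the rest by mean log2 value were not tested, which left 17059. limma 3.58.1 in R 4.3.3 was fitted to log2(intensity + 16) of 20 agar-grown arrays in 10 groups, with an intensity trend, 10 residual degrees of freedom and Benjamini-Hochberg adjustment at 0.05. The 6 arrays of compost-grown plants were not used. The 10 groups share 1 estimate of the spread, and because nothing says that the samples of a group were separate cultures, p-values may measure technical spread only. Precision is limited by 2 arrays per group. The fit was also run on simulated data with known changes. The simulated noise was independent between arrays, so this run checks the computation only and not the calls.

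Gene names come from the platform annotation, updated through gene identifiers to RefSeq names (assembly TAIR10.1). It lists 13513 probe sets with 1 gene, 503 with several and 8794 with none, and only the first are named. The genes named were all called ones, up to 4 of each list by smallest adjusted p, and up to 5 in each direction of the cold and other-mutant comparisons. Other genes and probe sets were chosen after their values were seen, and the members and lists were chosen with earlier results of these data known. Alternatives were another filter or none, constants of 1 and 64, median scaling, quantile normalization, array weights, no trend, a replicate block, a fit of only the compared groups, leaving out the arrays marked as repeats, and leaving out each array in turn.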

Additional observations from a re-analysis of the deposited data

Results flagged for a closer look

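In 12 named genes or probe sets the difference between sf2 and wt changed between untreated and cold plants, tested with limma's interaction term (adjusted p under 0.05 over all probe sets tested). Lower in the cold than in untreated plants, relative to wt, were 258158_at (by −2.14), AT2G15020 (−1.78), AT3G09440 (−1.30), 251060_at (−1.28), 264000_at (−1.03), AT5G02230 (−1.0) and 258925_at (−0.99). Higher in the cold were AT4G01870 (2.22), 247648_at (1.74), AT1G52200 (1.64), 258678_at (0.91) and AT1G63880 (0.84), the last a gene of the TIR-NBS-LRR class of immune receptors. 258158_at read 53.4 and 57.5 in untreated wt, 86.8 and 119.5 in untreated sf2, 404.8 and 598.3 in cold wt and 173.2 and 176.3 in cold sf2. It therefore rose with cold in both lines and less in sf2 (0.69) than in wt (2.83), sf6 (2.14) or sf3 (1.74). For AT4G01870 the cold response was 1.39 in wt, 3.61 in sf2, 3.72 in sf6 and 1.79 in sf3. For AT1G52200 it was −0.28 in wt, 1.36 in sf2, 1.37 in sf6 and 0.81 in sf3, so in both genes sf6 responded like sf2. The 12 genes or probe sets were named because they were called in one of the conditions on the same arrays, so the interaction is not independent of that call.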

How the results depend on the processing

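Against 19 calls for untreated sf2 and wt, the count was 0 with only the compared groups (1812 at an unadjusted p under 0.05), 3 without a filter, 31 with a constant of 64, 84 with array weights, 5 without the trend and 59 without the arrays marked as repeats, 12 of those among the 19. Leaving out 1 array gave 0 to 91. Against 20 calls in the cold, the same settings gave 1 with only the compared groups, 12 without a filter, 10 without the trend and 3 without the repeats, a constant of 1 gave 33, quantile normalization 13 and leaving out 1 array 0 to 94. Median scaling changed the cold split from 15 higher and 5 lower to 8 and 6. Against 1 call for sf2 and the other mutants, there were 2 with only the compared groups, without a filter, with quantile normalization, with array weights and without the repeats, 4 with the 50th percentile filter or a constant of 64, and 1 to 14 without 1 array. Against 22 calls for the difference of cold responses, there were 8 with only the compared groups and without a filter, 35 with median scaling (10 higher and 25 lower), 13 without the trend and 3 to 54 without 1 array. With the replicate block the counts were 15, 19, 2 and 24, but same-numbered samples share only a number: their deviations correlated at 0.11 in untreated and 0.05 in cold arrays, within −0.24 to 0.24 over all 45 pairs of groups. The 19 calls were kept in 6 to 13 of 15 settings (median 8), and 7 of them in fewer than 8, among them MYC4, 258133_at, 260601_at and 262883_at (6 each) and AT3G14200, AT1G60590 and 262826_at (7 each). Most often kept was AT3G09440, in 13, lost with only the compared groups and without sf2 control replicate 2 (adjusted p 0.000838 to 0.11). Of 2346 values of 159 named probe sets under alternatives none changed sign past the threshold, 121 lost and 17 gained a call. Only called probe sets can lose a call, so the 121 are not to be read against all 2346 values. The cause of these changes was not tested. Some of the fits also used fewer arrays. Dim probe sets such as AT3G14200 in wt are limited by signal near background.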
